A study of Sus scrofa with 6 samples.

Results

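Described here are 10 genes of the defence against reactive oxygen in immature Sertoli cells of the pig: SOD1, SOD2, CAT, GPX4, PRDX1, TXNRD1, SRXN1, HMOX1, NQO1 and the melatonin-binding quinone reductase NQO2. They were chosen by symbol, and each matched 1 row of the 20731 genes measured. Sertoli cells are the somatic cells of the testis that nourish germ cells. RNA of 3 libraries labelled MT and 3 labelled Control was sequenced. The MT cells were exposed to melatonin, the hormone of the pineal gland, at 10 nM over 36 h. For the Control cells no dose, solvent or time is stated, and the age and breed of the animals are not stated for either group. Nothing in the labels says that the 3 libraries of a group came from separate cultures or animals, so p-values compare the groups with a spread that may be technical.

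Superoxide, which leaks from the respiratory chain and from oxidases, is turned into hydrogen peroxide by superoxide dismutases. Catalase, peroxiredoxins and glutathione peroxidases then remove the peroxide, and thioredoxin reductase recharges the peroxiredoxins through thioredoxin. Many of these genes are switched on by the transcription factor NRF2 (gene NFE2L2), which KEAP1 holds back until electrophiles or oxidants modify it. NRF2 targets among the 10 genes are HMOX1, NQO1, SRXN1, TXNRD1 and PRDX1. NQO2 is a relative of NQO1 that works poorly with NADH and NADPH and was found in hamster tissue to be a binding site for melatonin.

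Each library held 19579279 to 21500665 counted reads, and values are FPKM, fragments scaled to gene length and library size. Control 3 was unlike the rest: on the principal component holding 68.2% of the variance its position was 40.4, against -10.4 to 7.52 for the MT libraries and -22.0 and -21.7 for Control 1 and Control 2. The differences of the 10 genes are therefore given over 6 libraries and without Control 3. Other values are over 6 libraries unless stated otherwise. On the second component, holding 16.5% of the variance, Control 3 (-12.06) lay with Control 1 (-6.46) and Control 2 (-12.34). The MT libraries lay at 7.60 to 13.75 there. Of the Sertoli cell markers, KRT18 (76.7 to 90.0 FPKM), AMH (11.3 to 15.6), WT1 (10.0 to 12.8) and SOX9 (1.61 to 2.40) were measured, while INHA, DHH and TF stayed under 0.5 FPKM in every library. Of the myoid markers, ACTA2 and MYH11 were at or near 0, but TAGLN was at 154 to 257 FPKM with its highest value in Control 3. Summed over the 5 myoid markers the level was 161.7 to 194.2 FPKM in MT and 160.3 to 264.8 FPKM in Control. The macrophage markers CSF1R and CD163 were near 0, and CD68 was at 4.50 to 5.30 FPKM in MT and 3.18 to 4.14 FPKM in Control. Not every listed marker was found by symbol, with 8 of 11 Sertoli and 4 of 5 macrophage markers found. The 3 of 6 Leydig cell markers found summed to 3.74 to 4.87 FPKM in MT and 3.85 to 4.35 FPKM in Control. The 2 of 6 germ and 2 of 4 endothelial cell markers found stayed under 1.4 FPKM in sum. Markers that were not found have no value here. The part of these markers in the results was not tested. In RNA of whole cultures, fewer cells of a type and less RNA per cell cannot be told apart.

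Setting MT beside Control asks which redox transcripts differ after melatonin. The haem oxygenase HMOX1 and the thioredoxin reductase TXNRD1 had lower values in MT than in Control in every library, as did NQO1, and catalase had higher values in every MT library. The manganese superoxide dismutase SOD2 was lower and GPX4 higher in MT than in Control 1 and Control 2, but Control 3 lay near or beyond the MT libraries for both. NQO2 had all 3 MT values inside the range of the Control values. Over 6 libraries limma called 0 of the 10 genes at an adjusted p of 0.05, and 0.0% of the 10950 tested genes. At an unadjusted p under 0.05 stood 5 of the 10 in limma (4.72% of all tested genes) and 4 of the 10 by limma voom on read numbers (4.52%), which also called 0 genes (0.0%). Without Control 3, limma called HMOX1, TXNRD1 and SOD2 lower and GPX4 higher in MT. That is 3 of 10 genes lower (6.62% of tested genes) and 1 of 10 higher (4.28%), against 10.9% of tested genes in either direction. Voom without Control 3 called these 4 of the 10 genes too, where it called 21.6% of all tested genes (8.29% higher and 13.3% lower). Below, the words fell and rose stand for such limma calls without Control 3. Control 3 was set aside for its values in these data, so these adjusted p-values may be too small. Leaving out any other library gave 0 calls.

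**Figure D1:**
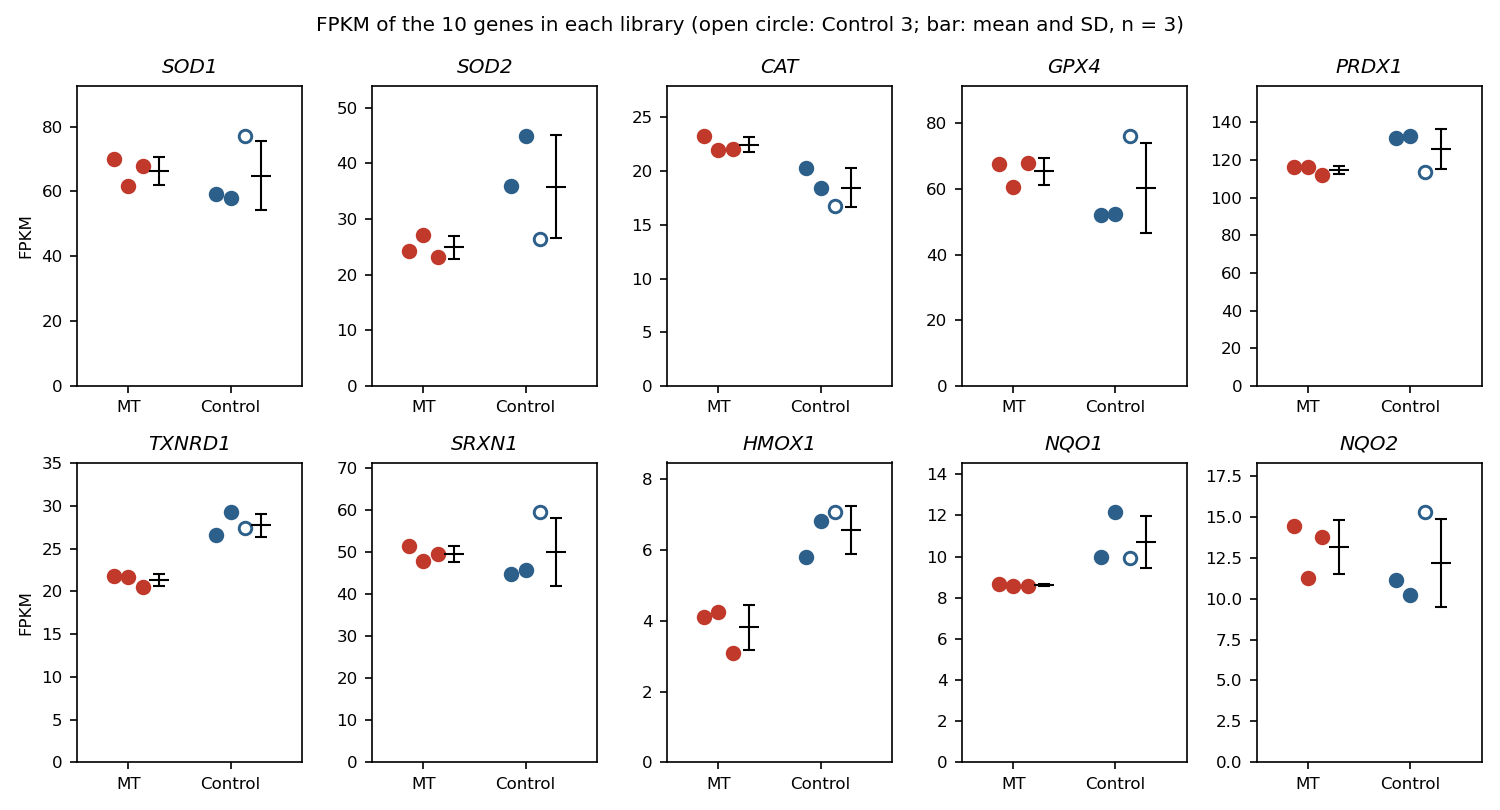
FPKM of the 10 genes (vertical axes, from 0) in the 3 MT libraries (red) and the 3 Control libraries (blue, with Control 3 as an open circle), each with its mean and SD. The MT values of TXNRD1, HMOX1 and NQO1 lie below all 3 Control values and those of CAT above them, while Control 3 has the highest value of SOD1, GPX4, SRXN1 and NQO2.

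MT and Control values did not overlap for 4 of the 10 genes (11.2% of all tested genes). Those were 1 gene higher (CAT), where 6.24% of all tested genes were, and 3 genes lower (TXNRD1, HMOX1 and NQO1), where 4.99% were. Without Control 3 all 10 genes were parted in this way, 5 in each direction, as were 56.2% of all tested genes (25.9% higher and 30.3% lower). The median log2 difference of the 10 genes, MT minus Control on log2(FPKM + 1), was -0.07 against 0.02 over all tested genes, and -0.04 against 0.00 without Control 3.

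SOD1, the copper and zinc dismutase of the cytosol (ENSSSCG00000021355, chromosome 13, 195326573 to 195335273), had 70.0, 61.6 and 67.8 FPKM in MT 1 to 3, against 59.3, 58.1 and 77.1 FPKM in Control 1 to 3. All 3 MT values lay inside the Control range, which Control 3 stretched upward. The log2 difference was 0.04 (95% interval -0.29 to 0.38), and 0.17 without Control 3 (adjusted p 0.145), while without Control 1 or Control 2 it was -0.01 and -0.03, so no direction can be given. The last bases of SOD1 overlap the neighbouring gene SCAF4 in the RefSeq annotation, so reads there could belong to either.

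SOD2, the manganese dismutase of the mitochondrial matrix and a target of NF-kB (ENSSSCG00000040317, chromosome 1, 7679352 to 7689564), had 24.3, 27.2 and 23.2 FPKM in MT, against 36.0, 44.9 and 26.5 FPKM in Control. Control 3 lay inside the MT range, and Control 1 and Control 2 lay well above it. The means were 24.9 ± 2.04 FPKM in MT and 35.8 ± 9.22 FPKM in Control (SD, n = 3 each), a log2 difference of -0.48 (SE 0.19, adjusted p 0.9998). Without Control 3 SOD2 fell, with a log2 difference of -0.67 (SE 0.11, adjusted p 0.0273). Without Control 2 the log2 difference over the other 5 libraries was -0.30, against -0.48 with it.

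CAT, the peroxisomal catalase that splits hydrogen peroxide (ENSSSCG00000013302, chromosome 2, 26493664 to 26533881), had 23.3, 22.0 and 22.1 FPKM in MT, against 20.3, 18.4 and 16.7 FPKM in Control. The groups did not overlap, and Control 3 was the lowest library. On the log2 scale the difference was 0.27 (SE 0.11, adjusted p 0.9998), and 0.21 without Control 3 (adjusted p 0.0976), which did not pass. With any 1 library left out it lay between 0.21 and 0.34.

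GPX4, the selenium enzyme that reduces lipid hydroperoxides in membranes and guards against ferroptosis (ENSSSCG00000024052, chromosome 2, 77321568 to 77323931), had 67.5, 60.7 and 68.0 FPKM in MT, against 52.2, 52.5 and 76.1 FPKM in Control. Control 3 had the highest value of all 6 libraries and the other Control libraries the lowest. This gave a log2 difference of 0.14 (95% interval -0.26 to 0.53, adjusted p 0.9998). Without Control 3 GPX4 rose, with a log2 difference of 0.32 (SE 0.07, adjusted p 0.0447).

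PRDX1, the most abundant of the 10 genes and a cytosolic peroxiredoxin (ENSSSCG00000003914, chromosome 6, 165847390 to 165859918), had 116.1, 116.0 and 112.1 FPKM in MT, against 131.5, 132.7 and 113.8 FPKM in Control. Control 3 lay within the MT range. Its log2 difference was -0.13 (95% interval -0.38 to 0.12), and -0.20 without Control 3 (adjusted p 0.0648), which did not pass, though it did when those 5 libraries were quantile normalised (log2 difference -0.27, adjusted p 0.0375). SRXN1, the sulfiredoxin that repairs overoxidised peroxiredoxins (ENSSSCG00000023298, chromosome 17, 34582377 to 34589308), had 51.5, 47.8 and 49.6 FPKM in MT, against 44.9, 45.9 and 59.5 FPKM in Control. Its MT values all lay inside the Control range, and the log2 difference of 0.00 (95% interval -0.32 to 0.32) was 0.13 without Control 3 (adjusted p 0.205), so it has no direction here.

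TXNRD1, the cytosolic thioredoxin reductase and also a selenium enzyme (ENSSSCG00000000843, chromosome 5, 80170334 to 80213889), had 21.8, 21.7 and 20.5 FPKM in MT, against 26.6, 29.2 and 27.4 FPKM in Control. Control 3 sat between the other Control libraries, clear of the MT values. The means were 21.3 ± 0.75 FPKM in MT and 27.7 ± 1.35 FPKM in Control (SD, n = 3 each), a mean ratio of 0.769. The log2 difference was -0.36 (SE 0.10, adjusted p 0.736) over 6 libraries and -0.37 (SE 0.07, adjusted p 0.0357) without Control 3, and lay between -0.39 and -0.33 with any 1 library left out.

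HMOX1, which breaks haem down to biliverdin, iron and carbon monoxide (ENSSSCG00000039745, on a scaffold not assigned to a chromosome), was the least abundant of the 10 genes and the one with the largest difference over 6 libraries. It had 4.10, 4.25 and 3.09 FPKM in MT, against 5.79, 6.81 and 7.05 FPKM in Control. Those values rest on 407, 402 and 295 reads in MT and 523, 630 and 682 reads in Control, so counting error alone was at most 5.82% of a value. Control 3 was the highest library, on the far side from MT. The means were 3.81 ± 0.63 FPKM in MT and 6.55 ± 0.67 FPKM in Control (SD, n = 3 each), a mean ratio of 0.582. The log2 difference was -0.65 (SE 0.14, adjusted p 0.452) over 6 libraries and -0.61 (SE 0.13, adjusted p 0.0399) without Control 3, and lay between -0.73 and -0.54 with any 1 library left out.

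NQO1, the quinone reductase that uses NADH or NADPH (ENSSSCG00000002754, chromosome 6, 17292962 to 17302593), had 8.67, 8.56 and 8.59 FPKM in MT, against 10.0, 12.1 and 9.92 FPKM in Control. The MT libraries were nearly equal, with a coefficient of variation of 0.645%, less than the counting error of up to 5.47% expected from their 334 to 355 reads, while that of the Control libraries was 11.8%. NQO1 had a log2 difference of -0.28 (SE 0.12, adjusted p 0.9998), and -0.32 without Control 3 (adjusted p 0.0599), and neither passed. NQO2 (ENSSSCG00000020758, chromosome 7, 1792745 to 1805916) had 14.4, 11.2 and 13.8 FPKM in MT, against 11.12, 10.2 and 15.3 FPKM in Control. The 3 MT values lay inside the Control range, and Control 3 was the highest library. The means were 13.1 ± 1.67 FPKM in MT and 12.2 ± 2.69 FPKM in Control (SD, n = 3 each), a log2 difference of 0.11 (95% interval -0.30 to 0.53, adjusted p 0.9998). Without Control 3 the difference was 0.27 (SE 0.11, adjusted p 0.130) and did not pass, and without Control 2 it was 0.00.

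**Figure D2:**
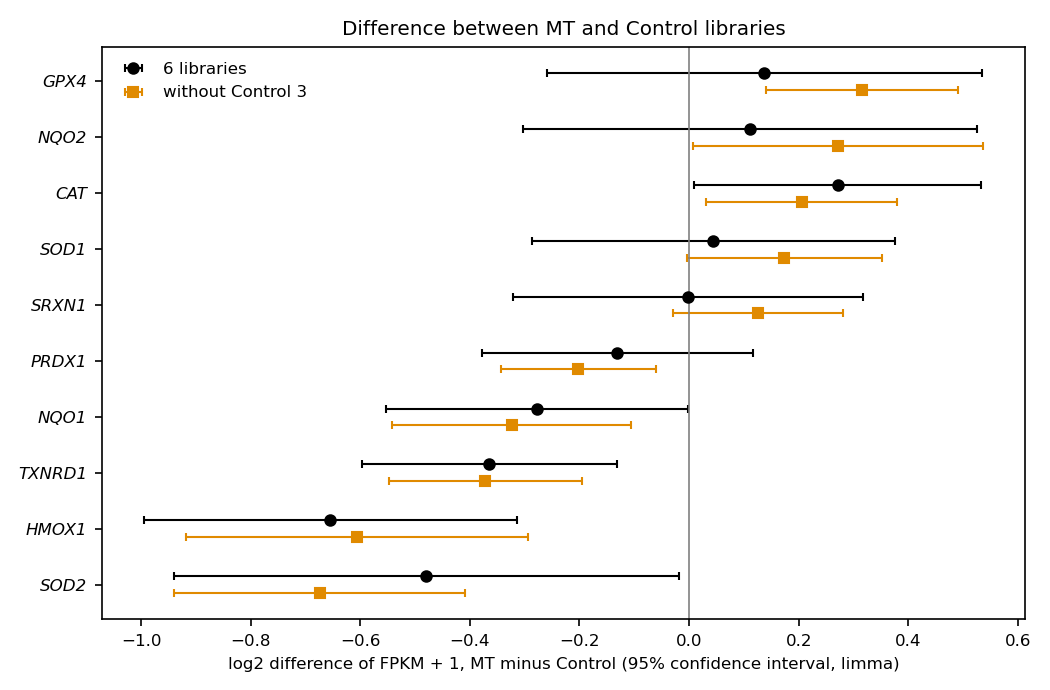
Log2 difference of FPKM + 1, MT minus Control (horizontal axis), with its 95% confidence interval from limma, for the 10 genes over 6 libraries (black circles) and without Control 3 (orange squares). The values of HMOX1 (-0.65 and -0.61) and TXNRD1 (-0.36 and -0.37) moved little between the fits, while those of SOD2 (-0.48 and -0.67), GPX4 (0.14 and 0.32) and NQO2 (0.11 and 0.27) moved away from 0 without Control 3.

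Control 3 and the MT libraries can each be set beside the mean of Control 1 and Control 2, which both differences share. For GPX4, Control 3 lay 0.53 above that mean on the log2(FPKM + 1) scale and the MT mean 0.32 above it. For NQO2 the values were 0.48 for Control 3 and 0.27 for MT, for SOD1 0.39 and 0.17, and for SRXN1 0.38 and 0.13. In those 4 genes Control 3 was further from the other Control libraries than the MT mean was. SOD2 was -0.58 in Control 3 and -0.67 in MT, and PRDX1 was -0.21 and -0.20. HMOX1 (0.14 in Control 3 and -0.61 in MT) and CAT (-0.20 and 0.21) went opposite ways. TXNRD1 was at -0.02 in Control 3 and -0.37 in MT, and NQO1 at -0.14 and -0.32.

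**Figure D3:**
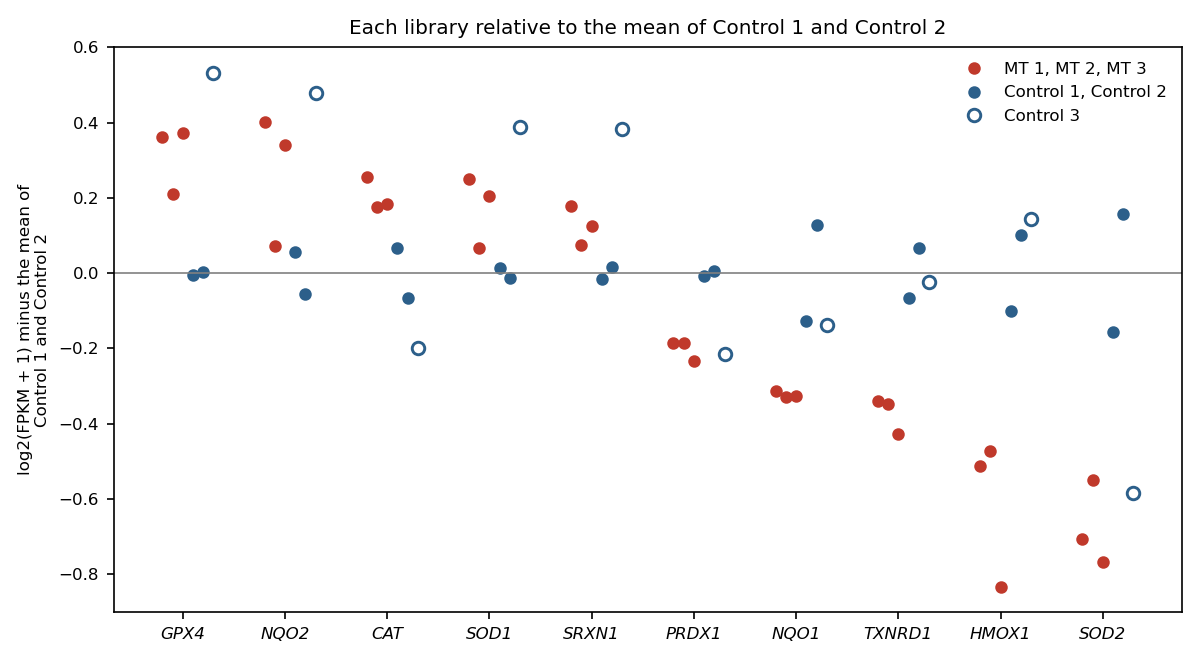
Log2(FPKM + 1) of each library minus the mean of Control 1 and Control 2 (vertical axis) for the 10 genes, with MT libraries in red, Control 1 and Control 2 in filled blue and Control 3 as an open blue circle. Control 3 lies beyond the MT libraries for GPX4, NQO2, SOD1 and SRXN1, among them for SOD2 and PRDX1, and apart from them for CAT, NQO1, TXNRD1 and HMOX1.

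FPKM is scaled to gene length, so levels can be ordered between genes. In MT libraries the order of mean FPKM was PRDX1 (114.7), SOD1 (66.4), GPX4 (65.4), SRXN1 (49.6), SOD2 (24.9), CAT (22.4), TXNRD1 (21.3), NQO2 (13.1), NQO1 (8.61) and HMOX1 (3.81). SOD1 could not be parted from GPX4, nor SOD2 from CAT, since their library values overlapped. In Control libraries TXNRD1 (27.7 FPKM) stood above CAT (18.5 FPKM) with no overlap, the reverse of the order of their means in MT libraries. In MT the gap was narrow, with the lowest CAT value at 21.98 FPKM and the highest TXNRD1 value at 21.8 FPKM. Counting error was up to 2.47% of a value for CAT and 2.04% for TXNRD1, so their order in MT is not firm. SOD2, TXNRD1 and CAT were thus close together in MT (20.5 to 27.2 FPKM over all 9 values) and spread in Control (16.7 to 44.9 FPKM). In Control libraries the ranges of neighbours overlapped from SOD1 to GPX4, SRXN1, SOD2 and TXNRD1, and from NQO2 to NQO1. Among the tested genes, PRDX1 stood at the 97.0th percentile of mean FPKM, NQO2 at the 64.8th, NQO1 at the 55.9th and HMOX1 at the 35.5th.

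Ratios within a library do not depend on its depth. For 4 pairs of genes, picked after their values were seen, they were compared by a two-sided exact permutation test, whose smallest possible p with 3 against 3 is 0.10, so that no ratio could pass. CAT over SOD2, an enzyme that removes hydrogen peroxide over one that makes it, was 0.959, 0.809 and 0.952 in MT, against 0.564, 0.410 and 0.631 in Control (exact p 0.10, adjusted over the 4 ratios 0.20). Control 3 lay with its own group, and the log2 difference was 0.78, and 0.91 without Control 3. TXNRD1 over PRDX1, the recharging enzyme over its peroxiredoxin, was 0.188, 0.187 and 0.182 in MT, against 0.202, 0.220 and 0.241 in Control (exact p 0.10, adjusted 0.20). NQO2 over NQO1 was 1.66, 1.31 and 1.60 in MT, against 1.11, 0.841 and 1.54 in Control (exact p 0.20, adjusted 0.267), and Control 3 reached into the MT range. SOD2 over SOD1 was 0.347, 0.441 and 0.343 in MT, against 0.607, 0.773 and 0.343 in Control (exact p 0.30, adjusted 0.30), where Control 3 equalled MT 3 to 3 digits.

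**Figure D4:**
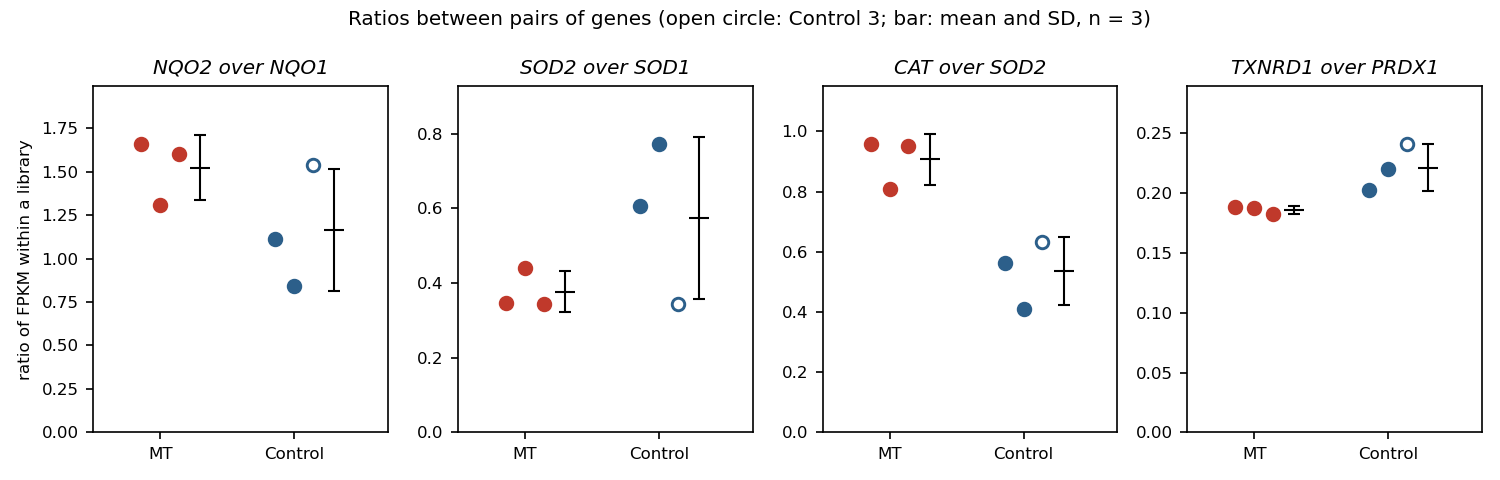
Ratio of FPKM within each library (vertical axes, from 0) for 4 pairs of genes, in the MT libraries (red) and the Control libraries (blue, Control 3 as an open circle), each with mean and SD. CAT over SOD2 is above 0.8 in the 3 MT libraries and at most 0.631 in Control, while Control 3 falls among the MT values for SOD2 over SOD1 and NQO2 over NQO1.

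The wider pathway was read from lists of redox genes. Over 6 libraries 0 members of any of these lists passed, and the calls named next are those without Control 3. Of 24 tested NRF2 target genes, 6 were higher and 18 lower in MT over 6 libraries, with a median log2 difference of -0.11 against 0.02 over all tested genes. That median was -0.14 without Control 3. The MT values lay below all Control values for 6 of the 24 (4.99% of all tested genes) and above them for 0 (6.24%). Beside HMOX1, TXNRD1 and NQO1 these were PGD and TKT, enzymes of the pentose phosphate pathway that supplies NADPH, and BLVRB, a biliverdin reductase. Without the 5 genes of the list that are among the 10, 13 of 19 were lower, with a median of -0.08, and of -0.02 without Control 3. GCLM, the modifier subunit of the enzyme that starts glutathione synthesis, had 13.0, 16.3 and 15.2 FPKM in MT, against 24.5, 23.1 and 14.9 FPKM in Control. It fell without Control 3 (log2 difference -0.65, adjusted p 0.0251), and Control 3 itself lay within the MT range. GCLM, HMOX1 and TXNRD1 were the 3 of 24 targets that fell without Control 3 (6.62% of all tested genes fell), and 0 rose (4.28%). Of the 19 targets outside the 10 genes, GCLM was the 1 that fell, and 0 rose. PGD had 44.1, 39.8 and 42.4 FPKM in MT, against 49.4, 46.5 and 68.7 FPKM in Control, and BLVRB 39.7, 35.3 and 42.3 FPKM in MT, against 45.6, 44.8 and 89.5 FPKM in Control. Both had their highest value in Control 3, and neither passed without it.

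Of 11 tested genes of NRF2 and its regulators, 4 were higher and 7 lower in MT over 6 libraries. Their median was -0.04, and 0.00 without Control 3. NFE2L2 had 16.4, 18.9 and 16.3 FPKM in MT, against 18.3, 19.5 and 11.8 FPKM in Control, and KEAP1 had 17.0, 15.3 and 18.9 FPKM in MT, against 17.4, 16.0 and 26.6 FPKM in Control. In both genes Control 3 lay outside the range of the other 5 libraries, lowest in NFE2L2 and highest in KEAP1. BACH1, a repressor of HMOX1, had 6.85, 7.05 and 6.18 FPKM in MT, against 8.95, 8.13 and 4.47 FPKM in Control, and did not pass without Control 3 (adjusted p 0.0579). NFE2L1, a relative of NRF2 that drives proteasome genes, had 81.6, 87.2 and 70.8 FPKM in MT, against 60.4, 60.8 and 69.4 FPKM in Control. It was the 1 of 11 genes of this list that rose without Control 3 (log2 difference 0.39, adjusted p 0.0474), where 4.28% of all tested genes rose. RBX1, of the ubiquitin ligase that degrades NRF2, averaged 62.6 ± 4.56 FPKM in MT and 69.8 ± 7.77 FPKM in Control, and MAFF, a small MAF partner, 3.00 ± 0.28 FPKM in MT and 3.45 ± 0.71 FPKM in Control (SD, n = 3 each).

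**Figure D5:**
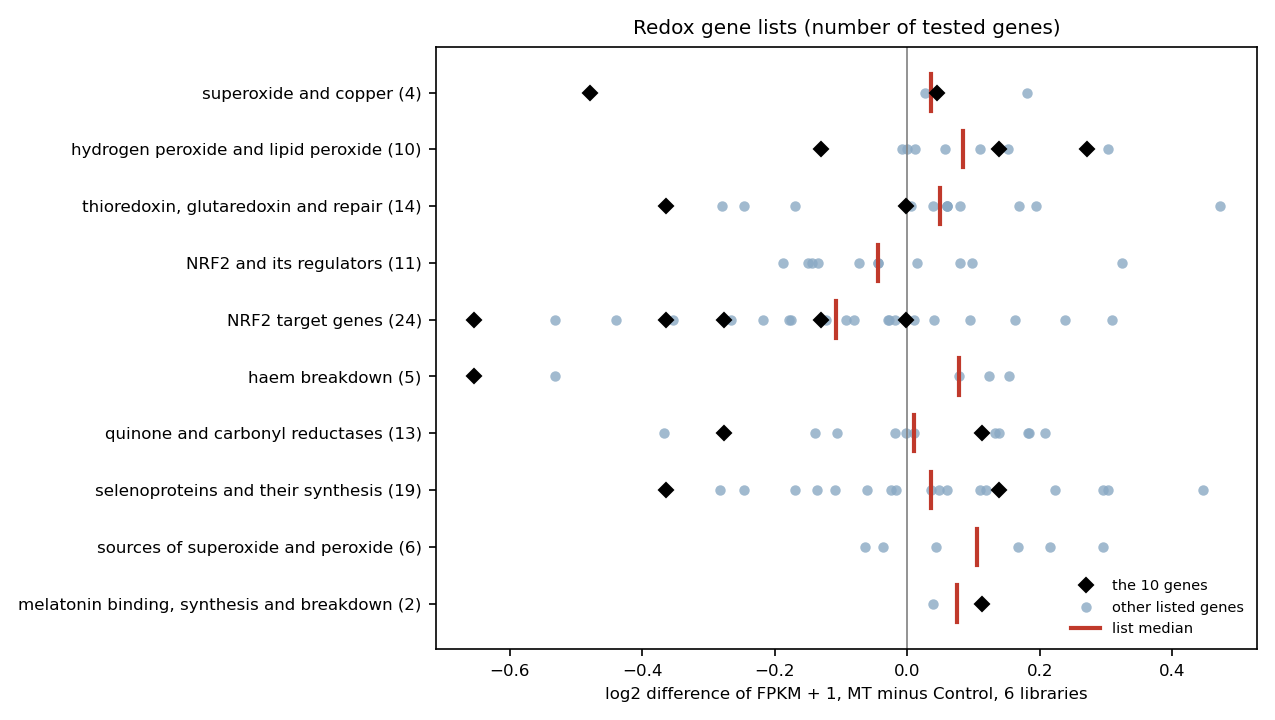
Log2 difference of FPKM + 1, MT minus Control over 6 libraries (horizontal axis), for each tested gene of 10 redox gene lists, with the 10 genes as black diamonds, other listed genes as blue circles and the median of each list as a red bar. The list of NRF2 targets has its median at -0.11, with 18 of 24 genes below 0, while the medians of the other lists lie between -0.04 and 0.11.

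Among superoxide and peroxide enzymes outside the 10 genes, SOD3, the secreted dismutase, had 133, 127 and 154 FPKM in MT, against 106, 107 and 158 FPKM in Control. It rose without Control 3 (log2 difference 0.37, adjusted p 0.0469), which was the highest library. CCS, which loads copper into SOD1, averaged 10.0 ± 1.09 FPKM in MT and 10.1 ± 2.93 FPKM in Control (SD, n = 3 each). Of 10 tested peroxide enzymes, 7 were higher and 3 lower over 6 libraries, with a median of 0.08. Without Control 3 GPX4 was the 1 of them that passed, where 10.9% of all tested genes did. PRDX2 had 63.0, 62.8 and 67.3 FPKM in MT, against 58.8, 55.4 and 59.4 FPKM in Control, and PRDX4 of the endoplasmic reticulum 19.0, 19.5 and 19.1 FPKM in MT, against 18.6, 18.6 and 18.0 FPKM in Control. Neither overlapped between groups, which held for 11.2% of all tested genes, and neither passed. The secreted GPX3 averaged 109.0 ± 24.1 FPKM in MT and 87.9 ± 18.3 FPKM in Control (SD, n = 3 each). GPX1 and TXN were not analysed here.

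Of 14 tested genes of the thioredoxin and glutaredoxin systems and their repair enzymes, 9 were higher and 5 lower, with a median of 0.05, and of -0.07 without Control 3. SESN2, a stress-induced sestrin that is a target of p53 and of ATF4, had 9.48, 9.79 and 8.54 FPKM in MT, against 5.90, 5.99 and 7.40 FPKM in Control. The groups did not overlap, and SESN2 rose without Control 3 (log2 difference 0.56, adjusted p 0.0244), while over 6 libraries it was 0.47 (adjusted p 0.736). TXNIP, which binds and inhibits thioredoxin, had 1.78, 2.47 and 2.22 FPKM in MT, against 3.42, 2.61 and 2.48 FPKM in Control, and did not pass. PARK7, the redox sensor DJ-1, had 92.6, 89.0 and 97.4 FPKM in MT, against 75.5, 80.7 and 87.6 FPKM in Control, and also did not pass.

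In haem breakdown, 3 of 5 tested genes were higher and 2 lower over 6 libraries. Their median was 0.08, and 0.15 without Control 3. HMOX1 was the 1 of the 5 that passed without Control 3, where 10.9% of all tested genes did. BLVRA averaged 9.98 ± 0.39 FPKM in MT and 9.08 ± 0.34 FPKM in Control, and POR, which passes electrons to haem oxygenase, 28.4 ± 0.64 FPKM in MT and 25.6 ± 3.63 FPKM in Control (SD, n = 3 each). Of 13 tested quinone and carbonyl reductases, 7 were higher and 6 lower over 6 libraries, and 0 passed in either fit. Their median was 0.01, and 0.14 without Control 3. CBR1 had 0.779, 0.892 and 0.955 FPKM in MT, against 1.13, 1.67 and 1.49 FPKM in Control, the lowest p of that list over 6 libraries. PTGR1 averaged 16.9 ± 0.48 FPKM in MT and 14.8 ± 0.90 FPKM in Control, and CYB5R1 3.87 ± 0.33 FPKM in MT and 3.44 ± 0.21 FPKM in Control (SD, n = 3 each).

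Of the sources of superoxide and peroxide, 6 of 14 genes in the table passed the filter of a mean of 1 FPKM. Over 6 libraries 4 of these 6 were higher and 2 lower in MT, and 0 passed in either fit. Their median was 0.11, and 0.19 without Control 3. AOX1, an aldehyde oxidase, averaged 5.36 ± 0.48 FPKM in MT and 4.20 ± 0.58 FPKM in Control, and DUOX2, a peroxide-making oxidase, 1.66 ± 0.65 FPKM in MT and 1.25 ± 0.31 FPKM in Control (SD, n = 3 each). Of genes of melatonin binding, synthesis and breakdown, NQO2 and CYP1A1 passed the filter. CYP1A1, which hydroxylates melatonin, had 1.16, 0.702 and 1.64 FPKM in MT, against 0.735, 1.05 and 1.52 FPKM in Control. The melatonin receptor genes MTNR1A and MTNR1B were not analysed here.

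The genes whose profile over the 6 libraries was most like that of NQO2 were DPP7, MIEF2, TSPOAP1, CBX6 and TMEM80. Likeness was the root mean square difference of log2(FPKM + 1) after each gene was centred on its own mean, which was 0.026 for DPP7, 0.029 for MIEF2, 0.030 for TSPOAP1, 0.032 for CBX6 and 0.034 for TMEM80, against a median of 0.24 over 9482 genes. DPP7, a lysosomal dipeptidyl peptidase, had 16.0, 12.4 and 15.4 FPKM in MT, against 12.1, 11.4 and 16.1 FPKM in Control. As in NQO2, Control 3 was the highest library of all 5 genes, and MT 2 was the lowest of the MT libraries. The genes were picked for likeness over these libraries, so this shared order follows from the choice.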

How the data were processed

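Total RNA of 3 MT and 3 Control libraries of pig immature Sertoli cells was sequenced, and groups were taken from the sample titles. The authors deposited FPKM per gene and library. Per the submitters' processing notes, HISAT2, Subread, featureCounts and bcl2fastq were used, with the build Sscrofa11.1. Not given in the sources used here are the annotation release, strand setting, filters and handling of reads shared by gene copies, so values of genes with processed copies are uncertain. FPKM is tied to each library's sum, so changes in abundant genes move all others.

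Symbols were matched by Ensembl identifier (13173 of 20731 genes), and positions by symbol from RefSeq on Sscrofa11.1. The steps of low FPKM values gave library totals and, for all 10950 tested genes (100%), read numbers within 0.01 of a whole number. Genes averaging 1 FPKM or more were compared on log2(FPKM + 1), which understates changes of low genes, with limma 3.58.1 in R 4.3.3 (variance trend, two-sided, Benjamini-Hochberg over all tested genes, threshold 0.05). The script was tested on simulated data that held no library unlike the others, so that test does not show which changes could be found here. Read numbers were also fitted with limma voom. Python 3.11.15, pandas 2.3.3, scipy 1.17.1 and matplotlib 3.10.9 were used otherwise. Genes and lists were chosen with earlier results of these data known. By rule the 10 genes, up to 3 further tested genes per list with the lowest p, and NFE2L2, KEAP1, BACH1, GPX1, TXN, TXNIP, MTNR1A and MTNR1B were named. TKT was named after its values were seen. A gene that the rule names is not reported here.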

Additional observations from a re-analysis of the deposited data

How the results depend on the processing

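Over 6 libraries 0 genes passed, with 517 under an unadjusted p of 0.05 in limma and 495 by limma voom. The count stayed at 0 under other pseudocounts, filters and scalings, without a variance trend, with the replicate block and by voom. With sample weights of limma, 6309 of the 10950 tested genes passed, the 10 genes among them. The weights were 4.965 for MT 1, 0.514 for MT 2 and 1.217 for MT 3. They were 1.296 for Control 1, 4.757 for Control 2 and 0.052 for Control 3. MT 1 and Control 2 thus weighed most in that fit, which did more than set Control 3 aside. With 1 library left out the count was 0 to 1194, and Control 3 gave the 1194. Combinations chosen after seeing the data, all without Control 3, passed 1333 genes (quantile normalised, 663 higher and 670 lower, against 469 and 725 as deposited), 2367 (voom) and 1228 (replicate block). HMOX1, TXNRD1 and SOD2 passed in all 4 fits without Control 3, and GPX4 in 3, with 0.29 under the block (adjusted p 0.0742). The labels do not say whether equal numbers pair the samples. Same-numbered libraries had correlations of -0.44, 0.63 and 0.34 of their deviations from the group means. Libraries with unlike numbers had -0.625 to 0.5. With 3 libraries a group, these values cannot decide whether the samples are paired.

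SOD1 turned to -0.0133 without Control 1 and -0.0273 without Control 2, in a range up to 0.174 with 1 library left out. SRXN1, at -0.0018, turned to 0.0206 quantile normalised, 0.0116 upper quartile scaled, 0.0056 scaled outside the mitochondrial genome, 0.148 with sample weights, 0.126 without Control 3, 0.0239 without MT 2 (range with 1 library left out -0.0735 to 0.126), and 0.106, 0.129 and 0.126 in the combinations by quantile, voom and block. The cause was not tested. The other 8 genes kept their direction in all 20 alternatives run. Depth limits HMOX1 and NQO1 most, with 295 to 682 reads a library.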

Other observations

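Selenoproteins, to which GPX4 and TXNRD1 belong, carry selenocysteine and depend on a dedicated synthesis pathway. Of 19 tested genes of selenoproteins and their synthesis, 10 were higher and 9 lower in MT over 6 libraries, with a median log2 difference of 0.04, and 0 passed. Without Control 3, 3 of the 19 rose and 3 fell, where 4.28% of all tested genes rose and 6.62% fell. GPX4 (0.32), SELENON of the endoplasmic reticulum (0.43) and SELENOM (0.32) rose, and TXNRD1 (-0.37), SELENOS (-0.41) and SELENOI (-0.46), an enzyme of phospholipid synthesis, fell. SELENON had 53.7, 53.2 and 55.4 FPKM in MT, against 40.1, 39.7 and 53.0 FPKM in Control, where Control 3 lay just under the MT values. SELENOS, of the removal of misfolded proteins from the endoplasmic reticulum, had 37.2, 34.7 and 36.5 FPKM in MT, against 46.6, 50.3 and 36.7 FPKM in Control, where Control 3 lay within the MT range. SELENOW, a small selenoprotein with the lowest p of the list outside the 10 genes over 6 libraries, had 9.09, 13.6 and 11.2 FPKM in MT, against 7.88, 8.61 and 7.36 FPKM in Control, and did not pass in either fit. SELENOM and SELENOI were named after their values were seen.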
